A study of Mus musculus with 24 samples.

Results

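The aminoacyl-tRNA synthetase genes of aged mouse hepatocytes were followed across a high-fat diet and rapamycin. The tables listed 55421 genes, and 37 of them carried a synthetase name, that is, the single-letter code of an amino acid followed by "ars" with an optional 1 or 2, or the names Eprs, Farsa, Farsb or Fars2. Of these, 20 were taken as cytosolic and 17, whose names end in 2, as mitochondrial. All 37 had enough counts to be tested among 13847 genes. The animals were male mice labelled C57BL/6J. From 4 months of age their food held vehicle or eRapa, an encapsulated form of rapamycin at 42 ppm, which inhibits the kinase mTOR, and at 18 months they entered a final period of 9 weeks. During that period 8 animals kept the normal diet and vehicle (ND+veh), 7 received a high-fat diet with 60% of calories from fat and vehicle (HFD+veh), and 9 received the same high-fat diet with eRapa (HFD+eRapa). The eRapa animals had therefore taken the drug long before the change of diet, and no group received eRapa on normal diet. Each library came from the perfused liver of 1 animal after enrichment for hepatocytes, and all libraries carried 1 batch label.

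Aminoacyl-tRNA synthetases join each amino acid to its matching tRNA, the step that gives the genetic code its meaning. Cytosolic enzymes charge tRNAs for the proteins made from nuclear genes, and a separate set, encoded in the nucleus and imported, charges the tRNAs of the mitochondrial genome. Gars and Kars each encode both the cytosolic and the mitochondrial enzyme, and Eprs encodes a fusion that charges glutamate and proline. A group of cytosolic enzymes is held in the multisynthetase complex by the scaffolds Aimp1, Aimp2 and Eef1e1. Uncharged tRNA activates the kinase GCN2, which raises translation of the transcription factor ATF4. Several cytosolic synthetase genes are known ATF4 targets, and ATF4 binds with C/EBP partners at a composite response element. In the liver the synthetases serve a tissue that makes most plasma proteins.

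Promoter sequence was available from RefSeq (GRCm38.p6) for 27 of the 37 genes, as windows from 250 bases before to 50 bases after the annotated start. The C/EBP-ATF response element, searched as TGATGNAAN on both strands, was found in 5 of the 27 windows (18.5%) and in 4.04% of all 27025 promoter windows of the same length. These matches are shown because ATF4 is the factor that links uncharged tRNA to the synthetase genes. Each line gives 10 bases on either side on the gene's own strand, with the match in capitals.
Aars, chr8:111033840-111033868, plus strand, match beginning at base 9 of the transcript: agcgggtcacTTTTCATCAgagcgctctg
Gars, chr6:55037960-55037988, plus strand, match beginning 31 bases before the start: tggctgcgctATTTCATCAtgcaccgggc
Iars, chr13:49682126-49682154, plus strand, match beginning at base 7 of the transcript: cactgtcagtATTGCATCAcctccagacg
Tars, chr15:11399656-11399684, minus strand, match beginning 16 bases before the start: caggagtcccGTTGCATCAgctggttagc
Yars, chr4:129189896-129189924, plus strand, match beginning at base 4 of the transcript: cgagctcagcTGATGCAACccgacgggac

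In Aars, Gars, Iars and Tars the match lay on the opposite strand, and in Yars on the gene's own strand. The E-box CACGTG was found in 5 of the 27 windows (18.5%, against 7.24% of all windows), those of Aars, Ears2, Farsb, Iars and Tars. The gamma-activated site TTCNNNGAA was found in 3 (11.1%, against 8.47%), those of Aars, Kars and Nars2. The interferon-stimulated element was found in 1 (3.7%, against 3.49%), that of Qars. These matches describe letters in the windows and do not show binding.

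The libraries held between 17.7 M and 25.9 M counts. Mean depth differed by at most 1.5 M counts between groups, which was the gap of HFD+eRapa to HFD+veh (two-sided exact permutation test, p = 0.0816). Marker sums are given as counts-per-million of the library total without scaling. Elsewhere CPM is counts-per-million after scaling of the libraries. Hepatocyte markers were abundant in every library, so the labelled cell type was present. The 10 genes of the list summed to 79876 to 153613 in ND+veh, 115436 to 144210 in HFD+veh and 60896 to 127160 in HFD+eRapa. The medians were 129723, 129965 and 101714, lowest in HFD+eRapa. Markers of other liver cells moved with the groups. The 12 macrophage markers summed to 52 to 1518 in ND+veh, 174 to 6335 in HFD+veh and 19.3 to 1042 in HFD+eRapa. The 12 lymphocyte markers ranged over 1.52 to 41.7, 3.76 to 559 and 2.58 to 31.4 in the same order, and the 6 neutrophil markers over 0.113 to 6.47, 1.51 to 45.8 and 0.0561 to 11.2, with Ly6g at 0 in every ND+veh and HFD+eRapa library. For the 8 endothelial markers the ranges were 66.1 to 373, 87.4 to 708 and 55.1 to 291. For the 8 stellate cell markers they were 30.9 to 247, 33.3 to 635 and 20.7 to 94.5, and for the 6 cholangiocyte markers 4.81 to 26.5, 13.7 to 424 and 11.7 to 57.2. In bulk RNA, fewer cells of a type and less RNA per cell cannot be told apart. Among the HFD+veh libraries, replicate 6 stood apart in the synthetase genes, with the lowest value of its group in 17 of the 37 and the highest in 9.

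Levels per length were compared on the FPKM scale. Among the cytosolic genes Tars, Nars and Aars, the enzymes for threonine, asparagine and alanine, were the most abundant. In ND+veh they averaged 50.8 ± 5.62, 50.2 ± 5.22 and 47.6 ± 7.77 FPKM (SD, n = 8), and these 3 means lay within 1 SD of each other. The least abundant cytosolic gene was Farsa, the alpha subunit of the phenylalanine enzyme, with a mean of 8.32 FPKM over all 24 libraries. Its partner subunit gene Farsb averaged 19.4 FPKM. The mitochondrial genes were lower as a class, with a median of 6.04 FPKM against 18.6 FPKM for the cytosolic genes. Mars2, which charges the mitochondrial methionine tRNA, was the lowest at 0.364 FPKM.

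**Figure D1:**
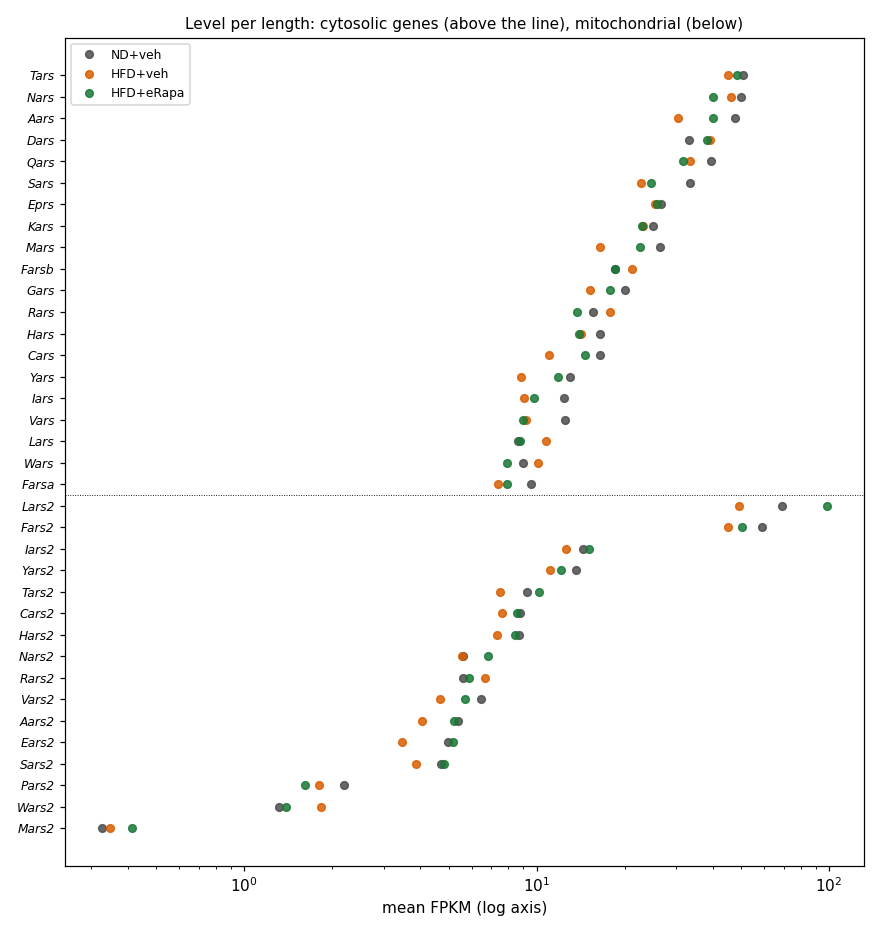
Mean FPKM (log axis) of each of 36 synthetase genes in ND+veh (n = 8), HFD+veh (n = 7) and HFD+eRapa (n = 9), with cytosolic genes above the dotted line and mitochondrial genes below. Most cytosolic genes sit to the right of most mitochondrial genes, and Lars2 and Fars2 stand apart from the other mitochondrial genes at means of 74.5 and 51.8 FPKM.

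Lars2 and Fars2 headed the mitochondrial class at 74.5 and 51.8 FPKM, ahead of Iars2 at 14.1 FPKM and Yars2 at 12.3 FPKM. Lars2, the mitochondrial leucine enzyme (chromosome 9, 123366927 to 123462666, mm10), was also the most variable member. It ran from 89.6 through a median of 236 to 487 CPM in ND+veh. The same 3 values were 75.8, 144 and 634 in HFD+veh, and 64.4, 226 and 1373 in HFD+eRapa. The groups overlapped throughout, and Lars2 was called in none of the contrasts, with edgeR adjusted p of 0.61, 0.146 and 0.477 in the order HFD+veh against ND+veh, HFD+eRapa against HFD+veh, and HFD+eRapa against ND+veh. Over the 24 libraries Lars2 followed the row of CT010467.1, annotated as ribosomal RNA on chromosome 17, with a Spearman rho of 0.98 on log2 CPM, and that of Mir6236 with 0.98. CT010467.1 ranged from 230 to 5011 CPM. These rows were looked up after the values of Lars2 had been seen, and the part of ribosomal RNA in the Lars2 counts was not tested.

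Fars2, the mitochondrial phenylalanine enzyme (chromosome 13, 36117412 to 36726280), gave discordant levels in the count and FPKM tables. Its mean FPKM was 11.5 times its mean CPM per kilobase of annotated exon, where the median ratio of the 37 genes was 1.67. Its exons overlap those of Nrn1 on the other strand by 501 bases, 8.72% of the exon bases of Fars2, and Nrn1 averaged 330 CPM in ND+veh, 131 CPM in HFD+veh and 191 CPM in HFD+eRapa. The Spearman rho of Fars2 FPKM was 0.28 with Nrn1 CPM and 0.14 with Fars2 CPM over the 24 libraries. Whether the counting used strand is not given in the sources used here, and the part of Nrn1 in the Fars2 values was not tested.

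On the high-fat diet the cytosolic synthetases moved mostly downward. In HFD+veh against ND+veh 9 of the 20 cytosolic genes were called lower and 1 was called higher (edgeR adjusted p under 0.05). Of the 17 mitochondrial genes, 1 was lower and 1 was higher. Among all genes tested 25.9% were called, 16.0% higher and 9.86% lower, so the 45% of cytosolic genes called lower stood against 9.86%, while the 5.88% of mitochondrial genes called lower lay below it. The median log2 fold change was -0.16 for cytosolic genes, -0.18 for mitochondrial genes and 0.05 for all genes. The groups did not overlap for 3 of the 37 genes (8.11%, against 2.44% of all genes), namely Cars, Mars and Sars. The difference between the cytosolic and mitochondrial classes was not tested.

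**Figure D2:**
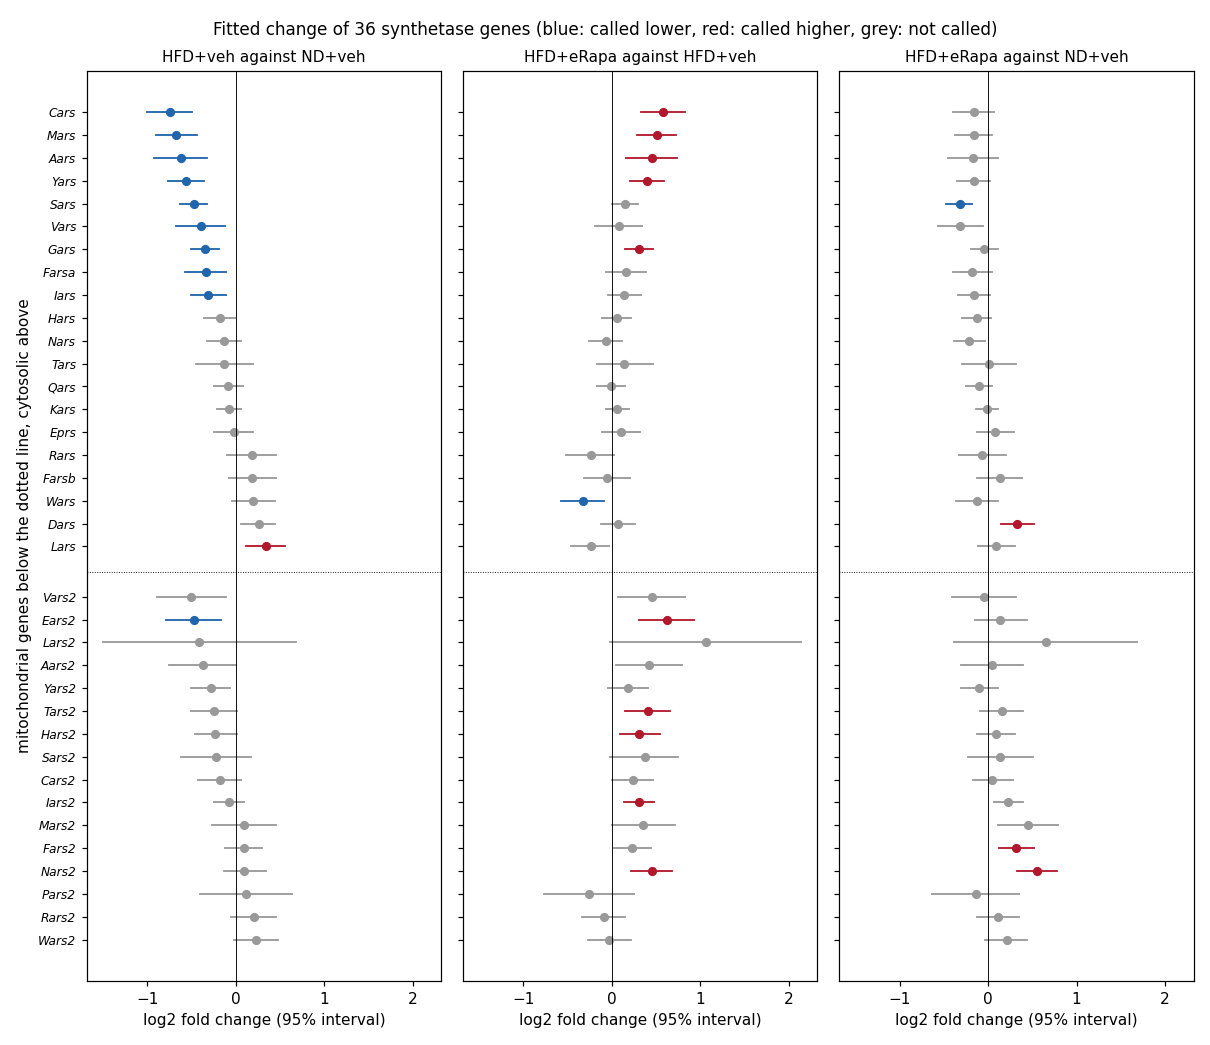
Log2 fold change with its approximate 95% interval for 36 synthetase genes in each contrast, ordered within each class by the change in HFD+veh against ND+veh. Blue marks genes called lower, red genes called higher and grey genes not called: 10 blue and 1 red on the left, 1 blue and 10 red in the middle, 1 blue and 3 red on the right.

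The largest fall was that of Cars, the cysteine enzyme (chromosome 7, 143557230 to 143600090, minus strand). Cars ranged from 28.4 through a median of 33.7 to 49.2 CPM in ND+veh and from 14 through 22.9 to 27 CPM in HFD+veh, so the lowest ND+veh animal lay above the highest HFD+veh animal. The log2 fold change was -0.74 ± 0.132 (SE; edgeR adjusted p = 0.00057). Mars, the methionine enzyme, whose initiator tRNA opens every cytosolic protein (chromosome 10, 127296221 to 127311786, minus strand), ranged from 58.3 through 76.5 to 83.2 CPM in ND+veh. In HFD+veh it ranged from 33.1 through 51 to 58.1 CPM, just short of overlap, a log2 change of -0.67 ± 0.116 (edgeR adjusted p = 0.000474). Sars, the serine enzyme (chromosome 3, 108424865 to 108445209, minus strand), had the smallest adjusted p of the family in this contrast. It ranged from 63.8 through 70 to 74.5 CPM in ND+veh and from 40.9 through 47.6 to 57.2 CPM in HFD+veh, a log2 change of -0.47 ± 0.0802 (edgeR adjusted p = 0.000387). In these 3 genes every HFD+veh animal was below every ND+veh animal.

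Aars, Yars and Gars, whose promoter windows held the ATF4-type element shown above, fell with some overlap between animals. Aars, the alanine enzyme (chromosome 8, 111033144 to 111057664), spanned 221, 276 and 314 CPM in ND+veh (lowest, median and highest) and 108, 166 and 259 CPM in HFD+veh. Its log2 fold change was -0.62 ± 0.152 (edgeR adjusted p = 0.00633). The HFD+veh animals were spread out, since replicates 3, 4, 5 and 6 lay at 108 to 166 CPM and replicates 1, 2 and 7 at 225 to 259 CPM. Yars, the tyrosine enzyme (chromosome 4, 129189760 to 129219607), spanned 31.1, 35.3 and 40.6 CPM in ND+veh and 17.6, 25.6 and 31.5 CPM in HFD+veh, where 1 animal at 31.5 CPM exceeded the lowest ND+veh animal. The log2 fold change of Yars was -0.56 ± 0.102 (edgeR adjusted p = 0.000766). Gars, the glycine enzyme of both compartments (chromosome 6, 55038007 to 55079500), spanned 41.7, 47.9 and 57.7 CPM against 32.3, 37.2 and 44.1 CPM, a log2 change of -0.35 ± 0.0815 (edgeR adjusted p = 0.00458).

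Smaller falls were called for Iars, Vars and Farsa. Iars, the isoleucine enzyme, spanned 41.6, 53 and 58.5 CPM in ND+veh and 34.1, 43.5 and 52.6 CPM in HFD+veh, a log2 change of -0.31 ± 0.0988 (edgeR adjusted p = 0.0261). Vars, the valine enzyme, spanned 33, 43.1 and 66.9 CPM against 26, 35.8 and 40.7 CPM, a change of -0.39 ± 0.139 on the log2 scale (edgeR adjusted p = 0.0392). Farsa spanned 14.4, 17.7 and 20.5 CPM against 11.6, 14.1 and 16.7 CPM, a change of -0.34 ± 0.119 (edgeR adjusted p = 0.0387). Lars, the leucine enzyme, was the cytosolic gene called higher. It spanned 30, 32.9 and 40.2 CPM in ND+veh and 34.8, 39.2 and 65.2 CPM in HFD+veh, a log2 change of 0.34 ± 0.112 (edgeR adjusted p = 0.0309). The highest Lars value came from HFD+veh replicate 6, and without that library the call was lost (edgeR adjusted p = 0.203). Of the 24 fits that left out 1 library each, the call was lost in 7 for Lars, 6 for Vars and 5 for Farsa, with replicate 6 of HFD+veh among them each time (edgeR adjusted p = 0.0628 and 0.0534 for Vars and Farsa without it).

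By assembly, the 8 genes of the multisynthetase complex (Dars, Eprs, Iars, Kars, Lars, Mars, Qars and Rars) held 2 called lower and 1 called higher, with a median log2 fold change of -0.05. The 12 other cytosolic genes held 7 called lower, with a median of -0.35. Among the genes with a promoter window, 4 of the 5 with the ATF4-type element were called lower, and so were 4 of the 22 without it. All 5 with the element were cytosolic, while the 22 without it were of both classes, so element and class cannot be told apart here. Cars and Vars, both called lower, had no window. Over all genes 9.86% were called lower and 16.0% higher. The element was chosen with earlier results of these data known, and the differences between these groups of genes were not tested.

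Among the mitochondrial genes Ears2 fell on the high-fat diet. Ears2, the mitochondrial glutamate enzyme (chromosome 7, 122037213 to 122067263, minus strand), spanned 8.88, 12.4 and 14.8 CPM in ND+veh and 4.55, 9.25 and 12.4 CPM in HFD+veh. Its log2 fold change was -0.47 ± 0.16 (edgeR adjusted p = 0.0326), a call lost in 5 of the 24 fits that left out 1 library (HFD+veh replicate 3, 4 or 6, or ND+veh replicate 2 or 3), with edgeR adjusted p of at most 0.0628.

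With eRapa on the high-fat diet, called synthetase genes were mostly higher than with vehicle on that diet. In HFD+eRapa against HFD+veh 5 of 20 cytosolic and 5 of 17 mitochondrial genes were called higher, and 1 cytosolic gene, Wars, was called lower. Among all genes 32.0% were called, 10.9% higher and 21.1% lower, so 25% of cytosolic and 29.4% of mitochondrial genes were called higher against 10.9%. The median log2 fold change was 0.09 for cytosolic genes and 0.31 for mitochondrial genes, against -0.04 for all genes. This contrast uses the same HFD+veh libraries as the previous one, so the 2 sets of changes are not independent, and they are given below side by side. In 1 of the 37 genes (2.7%, against 2.59% of all genes) the groups did not overlap.

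That gene was Cars, which spanned 28.5, 31.7 and 38.1 CPM in HFD+eRapa, above the HFD+veh maximum of 27 CPM. Its log2 fold change was 0.58 ± 0.128 (edgeR adjusted p = 0.00227), beside -0.74 in HFD+veh against ND+veh. Mars spanned 57.8, 66.4 and 74.9 CPM in HFD+eRapa, a log2 change of 0.51 ± 0.113 (edgeR adjusted p = 0.00223), beside -0.67. All but 1 of the 9 HFD+eRapa animals exceeded the highest HFD+veh animal in Mars. Yars spanned 29.2, 32.1 and 36.6 CPM, a log2 change of 0.40 ± 0.0998 (edgeR adjusted p = 0.00514), beside -0.56. Gars spanned 42.5, 46.2 and 52.7 CPM, a change of 0.31 ± 0.0795 (edgeR adjusted p = 0.00561), beside -0.35.

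Aars spanned 217, 245 and 276 CPM in HFD+eRapa, above HFD+veh replicates 3, 4, 5 and 6 and among the values of the 3 other HFD+veh animals. The log2 fold change was 0.45 ± 0.148 (edgeR adjusted p = 0.0219), beside -0.62, and the call was lost without HFD+veh replicate 3, 4 or 6 (edgeR adjusted p = 0.064, 0.0635 and 0.0591). Sars spanned 50.2, 55.7 and 60.6 CPM in HFD+eRapa and overlapped HFD+veh, with a log2 fold change of 0.15 (95% interval -0.00 to 0.30, edgeR adjusted p = 0.145) beside -0.47. Wars, the tryptophan enzyme and the member known to be induced by interferon gamma, spanned 15.8, 19.8 and 28.1 CPM in ND+veh, 18.7, 25.2 and 29.1 CPM in HFD+veh and 14.7, 18.9 and 24.2 CPM in HFD+eRapa. It was called lower with eRapa at -0.33 ± 0.123 (edgeR adjusted p = 0.0436), a call lost in 13 of the 24 fits that left out 1 library.

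**Figure D3:**
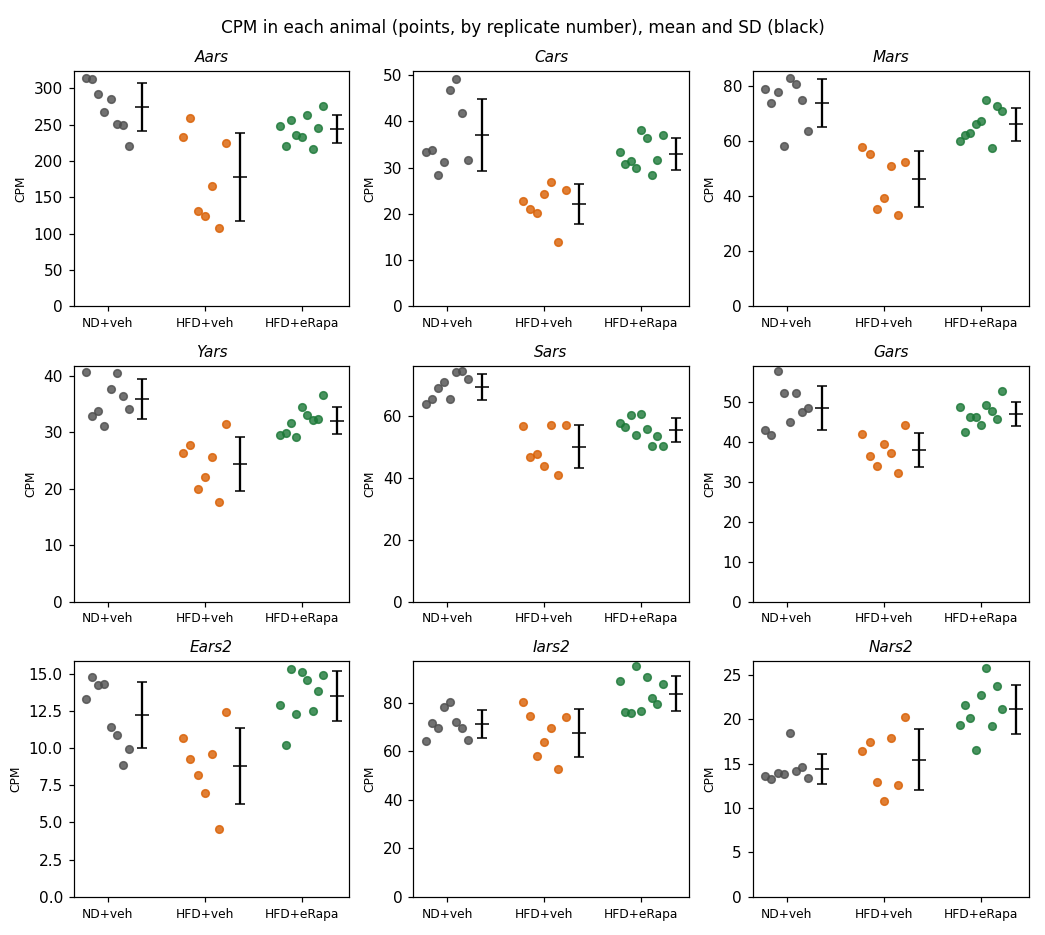
CPM in each animal for 9 synthetase genes in ND+veh (n = 8), HFD+veh (n = 7) and HFD+eRapa (n = 9), with the mean and SD in black beside the points. HFD+veh lies lowest for Aars, Cars, Mars, Yars, Gars and Ears2, Sars stays low in both high-fat groups, and Nars2 and Iars2 are highest in HFD+eRapa.

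The 5 mitochondrial genes called higher with eRapa charge glutamate, asparagine, isoleucine, threonine and histidine. Ears2 spanned 10.2, 13.8 and 15.3 CPM in HFD+eRapa, against 4.55, 9.25 and 12.4 CPM in HFD+veh, a log2 change of 0.62 ± 0.157 (edgeR adjusted p = 0.0053). Nars2 (chromosome 7, 96951505 to 97064758) spanned 16.5, 21.1 and 25.8 CPM against 10.8, 16.4 and 20.2 CPM, a change of 0.45 ± 0.118 (edgeR adjusted p = 0.00613). Both genes overlapped between groups, and HFD+veh replicate 6 gave the lowest Ears2 value.

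Iars2 spanned 75.8, 81.9 and 95.2 CPM in HFD+eRapa against 52.9, 69.7 and 80.6 CPM in HFD+veh, a log2 change of 0.31 ± 0.0862 (edgeR adjusted p = 0.00919). Its exons overlap those of Rab3gap2 on the other strand over 22.9% of their length, and Rab3gap2 averaged 23.1 CPM. Tars2 spanned 17.6, 24.3 and 29.7 CPM against 11.6, 18.3 and 22.5 CPM, a change of 0.41 ± 0.13 (edgeR adjusted p = 0.0195). Hars2 spanned 20.5, 25.6 and 28.6 CPM against 16.9, 18.1 and 26.5 CPM, a change of 0.31 ± 0.116 (edgeR adjusted p = 0.0401), and its call was lost in 11 of the 24 fits that left out 1 library. Hars2 and Hars share 195 exon bases on opposite strands.

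Compared directly with animals on normal diet, most synthetase genes of the HFD+eRapa group were not called. In HFD+eRapa against ND+veh 1 of 20 cytosolic genes was called higher and 1 lower, and 3 of 17 mitochondrial genes were called higher. The 5 calls made 13.5% of the family, the same percentage as among all genes, where 13.5% were called, 6.93% higher and 6.54% lower. By direction, 17.6% of mitochondrial genes were called higher against 6.93%. The median log2 fold change was -0.13 for cytosolic genes, 0.14 for mitochondrial genes and -0.03 for all genes. The groups did not overlap for 2 of 37 genes (5.41%, against 3.37% of all genes), among them Sars.

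Nars2 spanned 13.3, 13.8 and 18.4 CPM in ND+veh, so that 8 of the 9 HFD+eRapa animals exceeded its highest ND+veh value, and its log2 fold change was 0.55 ± 0.114 (edgeR adjusted p = 0.00173). Fars2 spanned 17.9, 23.5 and 28.2 CPM in ND+veh, 17.8, 23.3 and 32.1 CPM in HFD+veh and 27.5, 29.2 and 32.3 CPM in HFD+eRapa. Its log2 fold change against ND+veh was 0.32 ± 0.101 (edgeR adjusted p = 0.0375), but on the FPKM table it had the other sign, at -0.20 on the log2(FPKM + 1) scale (limma adjusted p = 0.598). The count-based call was lost in 11 of the 24 fits that left out 1 library, with the largest edgeR adjusted p, 0.12, without ND+veh replicate 4.

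Dars, the cytosolic aspartate enzyme, spanned 62.2, 73.7 and 82.3 CPM in ND+veh, 73.8, 81.8 and 120 CPM in HFD+veh and 79.9, 91.9 and 115 CPM in HFD+eRapa. HFD+eRapa exceeded ND+veh by 0.33 ± 0.0936 (log2, edgeR adjusted p = 0.018), a call lost without ND+veh replicate 4 (adjusted p = 0.0624). HFD+veh exceeded ND+veh by 0.26 ± 0.0993, not called by edgeR (adjusted p = 0.0562) but called by DESeq2 (adjusted p = 0.0477). Between the high-fat groups Dars differed by 0.07 ± 0.0969 (edgeR adjusted p = 0.59). Sars remained below ND+veh at -0.32 ± 0.0747 (edgeR adjusted p = 0.00432), with the highest HFD+eRapa animal at 60.6 CPM and the lowest ND+veh animal at 63.8 CPM. For the genes lower on the high-fat diet and higher with eRapa, the direct comparison with normal diet gave intervals that included 0: -0.17 (95% interval -0.45 to 0.11) for Aars, -0.16 (-0.40 to 0.07) for Cars, -0.16 (-0.37 to 0.05) for Mars, -0.16 (-0.35 to 0.02) for Yars, -0.04 (-0.19 to 0.11) for Gars and 0.14 (-0.15 to 0.44) for Ears2 on the log2 scale.

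The remaining 18 genes were called in no contrast. The 8 cytosolic ones were Eprs, Farsb, Hars, Kars, Nars, Qars, Rars and Tars, with fitted log2 changes between -0.18 and 0.19 in HFD+veh against ND+veh, between -0.24 and 0.14 in HFD+eRapa against HFD+veh, and between -0.21 and 0.13 in HFD+eRapa against ND+veh. Tars, the most abundant of them and a holder of the ATF4-type element, spanned 135, 215 and 256 CPM in ND+veh, 138, 160 and 315 CPM in HFD+veh and 165, 208 and 278 CPM in HFD+eRapa. Nars spanned 120, 135 and 144 CPM, 92.8, 118 and 158 CPM and 103, 113 and 131 CPM in the same order. The 10 mitochondrial ones were Aars2, Cars2, Lars2, Mars2, Pars2, Rars2, Sars2, Vars2, Wars2 and Yars2. Apart from Lars2, their changes ran from -0.50 to 0.23, from -0.26 to 0.45 and from -0.14 to 0.45 in the 3 contrasts, with smallest adjusted p of 0.0663, 0.0803 and 0.0939. Pars2 and Mars2 were the shallowest, with 23 to 100 and 42 to 143 counts per library, and their SE ran from 0.25 to 0.265 and from 0.174 to 0.185 on the log2 scale.

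The synthetase values were set beside the immune markers of the same animals. An immune marker score, the mean z-score of 18 macrophage, lymphocyte and neutrophil markers, ran from -1.22 to 0.85 in ND+veh, from -0.50 to 1.66 in HFD+veh and from -1.60 to 0.57 in HFD+eRapa. The median mitochondrial synthetase lay at -0.63 to 0.17 in HFD+veh, as a log2 deviation from the mean of all 24 libraries. It lay at -0.27, -0.27, -0.22 and -0.63 in HFD+veh replicates 3, 4, 5 and 6, whose scores were 1.28 to 1.66, and at 0.17, 0.05 and 0.08 in replicates 1, 2 and 7, whose scores were -0.50, -0.46 and 0.67. In ND+veh, replicate 8 had both the highest score, 0.85, and the lowest mitochondrial median, -0.29. The median cytosolic synthetase ranged from 0.02 to 0.16 in ND+veh, from -0.28 to 0.10 in HFD+veh and from -0.13 to 0.06 in HFD+eRapa.

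**Figure D4:**
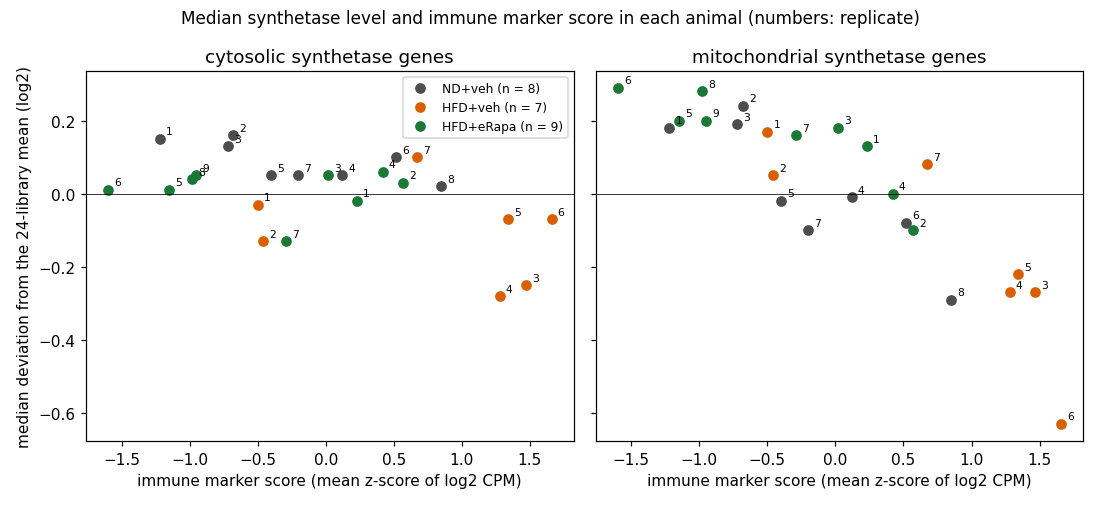
Median log2 deviation of the cytosolic (left) and mitochondrial (right) synthetase genes in each animal against its immune marker score, with replicate numbers beside the points. HFD+veh replicates 3, 4, 5 and 6 combine scores of 1.28 to 1.66 with mitochondrial medians of -0.22 to -0.63.

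When the immune marker score entered the fit, 7 synthetase genes were called in HFD+veh against ND+veh, 1 in HFD+eRapa against HFD+veh and 5 in HFD+eRapa against ND+veh, where all genes called fell to 1228 and 953 and rose to 2675. The 7 included Aars, Cars, Gars, Mars, Sars and Yars, with adjusted p from 0.00168 to 0.0494, and the 1 was Cars (log2 fold change 0.52, adjusted p = 0.0382). With a score of 19 endothelial, stellate cell and cholangiocyte markers as the covariate, 7, 0 and 7 synthetase genes were called by edgeR, beside 1856, 816 and 2811 of all 13847 genes, the contrast with 0 having 5 genes at an unadjusted p under 0.05 and Cars at an adjusted p of 0.0541. With the second score Aars (-0.33, adjusted p = 0.0214), Mars (-0.27, adjusted p = 0.0262) and Yars (-0.25, adjusted p = 0.05) were called lower in the eRapa animals against ND+veh, and Fars2 was no longer called (adjusted p = 0.0747). The part of the other cell types in the synthetase values was not tested.

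Marker lists gave the following calls in the 3 contrasts in the order used above. Macrophage markers were higher in 4 of 12 and then lower in 10 of 12, and in HFD+eRapa against ND+veh 0 of 12 were called by edgeR or DESeq2, with 0 at an unadjusted p under 0.05. Tested lymphocyte and neutrophil markers were each higher in 2 of 3 and then lower in 2 of 3. Endothelial markers were higher in 1 of 8 and then lower in 8 of 8, stellate cell markers higher in 3 of 8, lower in 8 of 8 and lower in 3 of 8, and tested cholangiocyte markers higher in 3 of 3, lower in 1 of 3 and higher in 1 of 3. Hepatocyte markers were lower in 2 of 10 and then higher in 3 of 10. Over all genes 16.0% were higher and 9.86% lower in the first contrast, 10.9% and 21.1% in the second, and 6.93% and 6.54% in the last.

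Genes that work beside the synthetases were read from lists of known members. The complex scaffolds Aimp1, Aimp2 and Eef1e1 gave 0 calls in all contrasts by edgeR and by DESeq2, and 0 at an unadjusted p under 0.05. Aimp1 averaged 26.2 ± 2.93 CPM in ND+veh, 24.8 ± 4.08 CPM in HFD+veh and 26.2 ± 4.15 CPM in HFD+eRapa (SD, n = 8, 7 and 9). Of 5 paralogues and proofreading enzymes, which remove wrongly charged amino acids or resemble the synthetases, 2 were higher with eRapa than with vehicle on the high-fat diet: Aarsd1 (0.83 ± 0.232, edgeR adjusted p = 0.00927) and Dtd2 (0.37 ± 0.131, edgeR adjusted p = 0.0354). Dtd1 was higher when HFD+eRapa was set against ND+veh (0.44 ± 0.132, edgeR adjusted p = 0.0249).

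The mitochondrial glutamine tRNA is made by a detour, in which Ears2 first loads glutamate and the amidotransferase of Gatb, Gatc and Qrsl1 converts it. On the high-fat diet 0 of the 4 genes of this list were called by edgeR (2 at an unadjusted p under 0.05) and 0 by DESeq2. Gatb averaged 30.9 ± 2.02 CPM in ND+veh, 36.4 ± 8.32 CPM in HFD+veh and 53.3 ± 2.6 CPM in HFD+eRapa. It was higher in HFD+eRapa by 0.55 ± 0.104 against HFD+veh (edgeR adjusted p = 0.000666) and by 0.79 ± 0.1 against ND+veh (edgeR adjusted p = 1.16e-05). Gatc was higher by 0.50 ± 0.103 and 0.41 ± 0.0987 in the same contrasts (edgeR adjusted p = 0.0014 and 0.00592), and Qrsl1 by 0.69 ± 0.15 against ND+veh (edgeR adjusted p = 0.00266). Mtfmt, which formylates the mitochondrial initiator methionine, was not called.

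Mitochondrial translation factors were called higher in 5 of 9 in HFD+eRapa against HFD+veh and in 4 of 9 against ND+veh, with medians of 0.29 and 0.31. They included the initiation factor gene Mtif2 (0.29 ± 0.0807 and 0.37 ± 0.0778, edgeR adjusted p = 0.00809 and 0.00208) and the ribosome recycling factor gene Mrrf (0.31 ± 0.104 and 0.43 ± 0.1, edgeR adjusted p = 0.0267 and 0.00456). In the first of these contrasts the elongation factor gene Tsfm (0.64 ± 0.195, edgeR adjusted p = 0.015) and the release factor gene Mtrf1l (0.38 ± 0.137, edgeR adjusted p = 0.0384) were called as well, and in the second Gfm2 (0.31 ± 0.0906, edgeR adjusted p = 0.0214) and Mtrf1 (0.35 ± 0.116, edgeR adjusted p = 0.0426). In HFD+veh against ND+veh 0 of 9 were called by edgeR, with 1 at an unadjusted p under 0.05 and 1 called by DESeq2. Among 11 tested tRNA maturation genes, 3 were lower on the high-fat diet, among them Trmt1 (-0.48 ± 0.127) and Tsen34 (-0.42 ± 0.145), with edgeR adjusted p of 0.0105 and 0.0366. With eRapa 3 were higher, among them the 3′ end nuclease Elac2 (0.35 ± 0.118, edgeR adjusted p = 0.0261) and the methyltransferase Trmt1 (0.35 ± 0.124, edgeR adjusted p = 0.035). Of 4 selenocysteine genes Sepsecs, which converts phosphoserine on its tRNA, was higher with eRapa (0.39 ± 0.131, edgeR adjusted p = 0.0263).

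**Figure D5:**
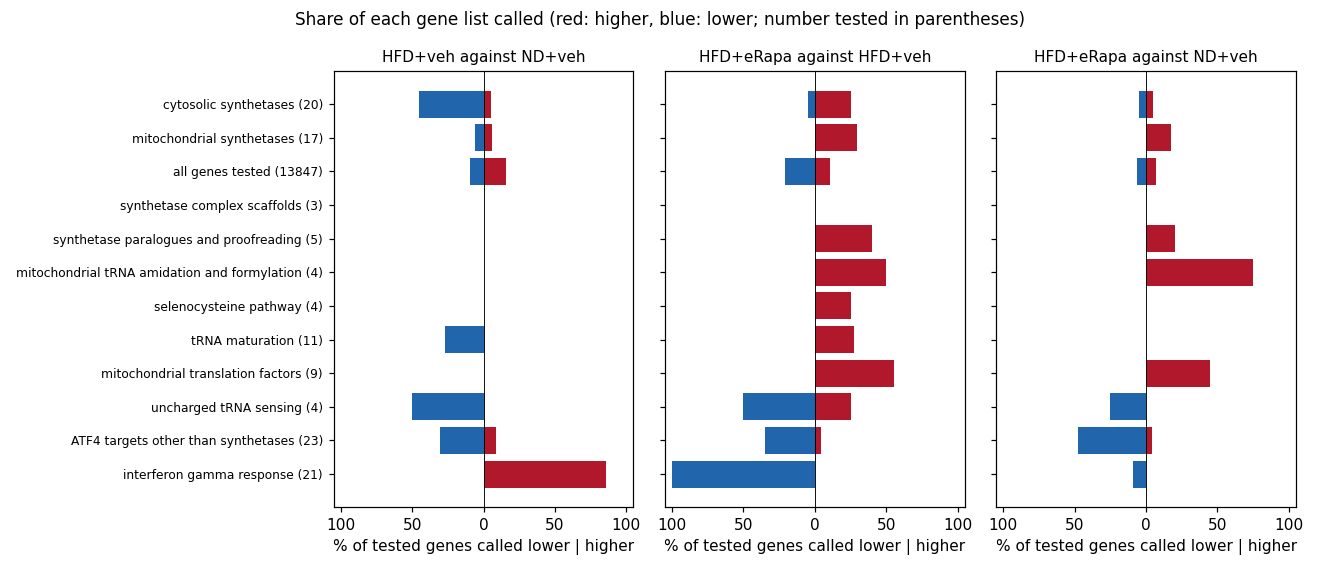
Percentage of the tested genes of each list called higher (red, to the right) or lower (blue, to the left) in each contrast, with the number tested in parentheses and all 13847 genes for reference. Cytosolic synthetases are called lower in 45% on the high-fat diet, and mitochondrial translation factors and amidation genes are called only higher, in the 2 contrasts with eRapa.

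The sensing pathway for uncharged tRNA was read next. Atf4 averaged 118 ± 20.7 CPM in ND+veh, 68.9 ± 16.2 CPM in HFD+veh and 77.4 ± 15.8 CPM in HFD+eRapa. Its transcript was lower on the high-fat diet with vehicle (-0.78 ± 0.161, edgeR adjusted p = 0.00217) and with eRapa (-0.61 ± 0.149, edgeR adjusted p = 0.00705), each against ND+veh. Between the high-fat groups it was not called (0.17 ± 0.155, edgeR adjusted p = 0.427). Gcn1, the partner that brings the kinase GCN2 to ribosomes, was lower on the high-fat diet (-0.57 ± 0.167, edgeR adjusted p = 0.0168) and higher with eRapa (0.56 ± 0.163, edgeR adjusted p = 0.0114). Eif2ak4, which encodes GCN2, and Impact, an inhibitor of GCN2, were lower with eRapa than with vehicle on the high-fat diet (-0.33 ± 0.101 and -0.75 ± 0.239, edgeR adjusted p = 0.0156 and 0.0191).

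Of 23 tested ATF4 targets outside the family, 7 were lower and 2 higher in HFD+veh against ND+veh, 8 lower and 1 higher in HFD+eRapa against HFD+veh, and 11 lower and 1 higher in HFD+eRapa against ND+veh. Over all genes 9.86% were lower and 16.0% higher in the first, 21.1% and 10.9% in the second, and 6.54% and 6.93% in the last, and the other lists are read against the same shares. The median log2 fold changes of the 23 targets were -0.31, -0.27 and -0.85, beside medians of -0.16, 0.09 and -0.13 for the cytosolic synthetases. Fgf21, a liver hormone of nutrient stress, was lower on the high-fat diet (-2.50 ± 0.465, edgeR adjusted p = 0.00091), as was Trib3, a feedback inhibitor of the pathway (-1.99 ± 0.453, edgeR adjusted p = 0.00423), and Aldh1l2, a mitochondrial folate enzyme (-2.82 ± 0.535, edgeR adjusted p = 0.00101), while Cth, a cysteine-making enzyme, was higher (0.77 ± 0.178, edgeR adjusted p = 0.00468). With eRapa, in HFD+eRapa against HFD+veh, the amino acid transporter genes Slc3a2 (-0.71 ± 0.142) and Slc7a5 (-1.61 ± 0.36) and the mTOR inhibitor gene Ddit4 (-1.68 ± 0.327) were lower, with edgeR adjusted p of 0.00116, 0.0024 and 0.000915, and so was Pck2, the mitochondrial phosphoenolpyruvate carboxykinase (-0.77 ± 0.218, edgeR adjusted p = 0.0094). Against ND+veh the smallest adjusted p values were those of Aldh1l2 (-3.73, edgeR adjusted p = 3.8e-05), Slc7a5 (-2.24 ± 0.355, edgeR adjusted p = 0.000121), Ddit4 (-1.91 ± 0.321, edgeR adjusted p = 0.000236) and Pck2 (-1.24 ± 0.212, edgeR adjusted p = 0.000278). Slc3a2 averaged 48.7 ± 10.2 CPM in ND+veh, 46.2 ± 12.4 CPM in HFD+veh and 28.3 ± 3.17 CPM in HFD+eRapa. Some of the largest changes were in genes of low level or wide spread. Aldh1l2 averaged 1.74 ± 0.37, 0.239 ± 0.196 and 0.124 ± 0.117 CPM in the same order, and Slc7a5 4.61 ± 0.675, 2.97 ± 2.01 and 0.97 ± 0.281 CPM. In ND+veh Fgf21 and Trib3 averaged 43.7 ± 40.9 and 16.4 ± 16.5 CPM.

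Interferon gamma response genes, the list to which Wars is linked by induction, were higher in 18 of 21 on the high-fat diet, lower in 21 of 21 with eRapa on that diet, and lower in 2 of 21 in HFD+eRapa against ND+veh. Their medians were 1.09, -1.36 and -0.32. Wars itself was not called on the high-fat diet (0.20 ± 0.126, edgeR adjusted p = 0.236). Its lower call with eRapa on that diet was lost with the immune score and with the non-parenchymal score (edgeR adjusted p = 0.281 and 0.417). Irf1, a transcription factor of this response, averaged 21.1 ± 4.11, 30.6 ± 6.41 and 15.9 ± 2.82 CPM in ND+veh, HFD+veh and HFD+eRapa. On the high-fat diet the smallest adjusted p values were those of the immunoproteasome genes Psmb8 (1.09 ± 0.199, edgeR adjusted p = 0.00075) and Psmb9 (1.22 ± 0.231, edgeR adjusted p = 0.001), the GTPase gene Irgm1 (1.58 ± 0.293, edgeR adjusted p = 0.000855) and the checkpoint ligand gene Cd274 (2.82 ± 0.582, edgeR adjusted p = 0.00225). With eRapa on that diet they were those of Irf1 (-0.94 ± 0.141, edgeR adjusted p = 8.26e-05), Psmb8 (-1.29 ± 0.193, edgeR adjusted p = 8.62e-05), Igtp (-1.98 ± 0.302, edgeR adjusted p = 0.000109) and Psmb10 (-0.80 ± 0.137, edgeR adjusted p = 0.000304). Against ND+veh the 2 lower were Tapbp and Irf1 (-0.52 ± 0.158 and -0.41 ± 0.137, edgeR adjusted p = 0.0281 and 0.0488). These genes are expressed in immune cells as well as hepatocytes, and the immune markers above moved in the same samples.

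The genes most like the leading synthetases over the 24 libraries were listed by Spearman rho of log2 CPM, with predicted genes left out. For Sars they were Coq8a (0.87), Abtb2 (0.86), Saysd1 (0.86) and Crip2 (0.85). For Mars they were Cyp27a1 (0.91), Slc49a4 (0.91), Bri3bp (0.90), Ryk (0.90) and Mfhas1 (0.90). The libraries share their diet groups, so these values describe likeness only.

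Exons of 14 of the 37 synthetase genes overlap exons of another gene on the opposite strand, as given above for Iars2. Aars shares 1326 exon bases (14.3%) with Exosc6 on the same strand, and Exosc6 was at 0 CPM on average. Strand cannot separate reads shared by Aars and Exosc6, so that value does not tell whether Exosc6 was expressed. Mars shares 68 bases (1.99%) with Ddit3, which averaged 9.62 CPM. Reads in stretches shared across strands cannot be told apart where strand was not used. The part of all these shared stretches in the synthetase values was not tested.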

How the data were processed

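RNA from hepatocytes of 24 mice was sequenced after polyA selection, and samples were grouped by the labels. The authors aligned reads to mm10 with STAR and deposited counts per gene (HTSeq 0.11.2) and FPKM per gene (Cufflinks), with Gencode vM23 gene models. SAMtools 1.1.0 is also named. Whether counting used strand is not given in the sources used here. Both deposited tables cover all 24 libraries, each 1 animal, at 17.7 M to 25.9 M counts.

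Counts were tested with edgeR 4.0.16 (R 4.3.3): filterByExpr, TMM scaling, 1 quasi-likelihood fit of the 3 groups without covariates, and Benjamini-Hochberg adjustment over all 13847 genes tested. A gene was called at an adjusted p under 0.05. CPM is a counts-per-million value after TMM scaling, with a prior count of 2 in log2 CPM. Summed marker values are counts-per-million of the library total without TMM scaling. The SE was obtained from the fold change and the F statistic of its test (change over root F, on the log2 scale), and intervals are 95%, approximate. Pairs of library totals were compared by exact permutation. Alternatives were DESeq2 1.42.0, limma 3.58.1 (voom, and log2 FPKM with pseudocounts of 1 and 0.1), other scaling and filters, marker scores as covariates, a replicate block and leaving out libraries. The fit was tested on simulated data.

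Values are given for every synthetase gene called in at least 1 contrast, for the 3 most abundant of each class, and for up to 4 called genes per list and contrast with the smallest adjusted p. The most similar genes, up to 5, are given for the synthetase gene with the smallest adjusted p in a contrast. Some genes and sequences that these rules name are not reported here or drawn, though class counts include them. The members and lists were chosen with earlier results of these data known. Gene coordinates, exon lengths and exon overlaps are those of an earlier Gencode release than vM23, also on mm10. Promoter windows are from RefSeq.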

Additional observations from a re-analysis of the deposited data

Results flagged for a closer look

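Single libraries that lay far from the rest of their group were looked for in 81 groups of values, and 6 were found. Chance marks about 1 group in 20, or 4.05 of 81. On the log2 CPM scale, Nars2 was 4.21 in ND+veh replicate 5, where the other ND+veh animals ranged from 3.74 to 3.88. Lars was 6.03 in HFD+veh replicate 6, with the others at 5.12 to 5.46. Lars2 was 9.31 in HFD+veh replicate 1, with the others at 6.25 to 7.46. Tars2 was 3.55 in HFD+veh replicate 6, with the others at 4.11 to 4.50. The total of HFD+veh replicate 3 was 19.85 M counts, with the others at 21.26 M to 22.03 M. The median cytosolic synthetase of HFD+eRapa replicate 7 lay at -0.13 as a log2 deviation from the mean of all libraries, with the others of that group at -0.02 to 0.06.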

How the results depend on the processing

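Counts of called synthetase genes were 12 in HFD+veh against ND+veh, 11 in HFD+eRapa against HFD+veh and 5 in HFD+eRapa against ND+veh. In the first contrast 7 were called with either marker score as a covariate. There, 8 were called by limma voom, by limma with either FPKM pseudocount, without a low-count filter and with only the groups compared. In the second, 5 were called by limma with either FPKM pseudocount, 1 with the immune score and 0 with the non-parenchymal score (edgeR; 5 at an unadjusted p under 0.05). In the last, 2 were called without a low-count filter and 3 without ND+veh replicate 4. Leaving out 1 library at a time gave 8 to 14, 8 to 15 and 3 to 5 calls. The cause of these changes was not tested. Fars2 in HFD+eRapa against ND+veh had the other sign on the FPKM scale, at -0.20 with both pseudocounts (limma adjusted p = 0.598 and 0.581). With log2(FPKM + 0.1) the median of all genes shifted to -0.10 and -0.12 in the contrasts with eRapa. Replicate numbers were not used as pairs in the main fit. In the 3 contrasts, deviations of same-numbered libraries correlated at a mean r of 0.32, -0.24 and -0.20. The correlation was over 0.1 in 5 of 7, 2 of 7 and 2 of 8 pairs, and whether same-numbered libraries shared a factor was not tested. With the replicate block 11, 0 and 5 genes were called (edgeR; 9 at an unadjusted p under 0.05 where 0 were called). In that second contrast the block left 305 of all 13161 genes called. The same libraries without the block gave 2148 of all genes and 5 synthetase genes. In the first contrast the block gave 3398 of all 13258 genes. Without it the same libraries gave 2696 of all genes and 10 synthetase genes. Without both ND+veh replicate 4 and HFD+veh replicate 6, an alternative chosen after seeing the data, 8, 9 and 5 were called. DESeq2 called 13, 11 and 6. Adding Tarsl2 to the name rule gave 38 genes.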
